A study of Mus musculus with 82 samples.

Results

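The proteins that carry the signal of the T cell receptor were described by the transcript levels of their genes in resting naive CD4 T cells of inbred mice. The set held 38 listed genes, listed by symbol, and 36 of them had a probe set named for them, out of 24922 probe sets in all. No probe set was named for Lck, the Src-family kinase bound to the coreceptor, or for Nfkb1, a subunit of NF-κB, in the annotation used, so neither is described. When the receptor binds its ligand, Src-family kinases phosphorylate the receptor chains and recruit ZAP-70, which marks the adaptors LAT and SLP-76. The assembled adaptors bring in phospholipase C and exchange factors, whose products open calcium, Ras and protein kinase C routes to NFAT, AP-1 and NF-κB. A set of phosphatases, ubiquitin ligases, lipid kinases and surface receptors, called brakes here, dampens each step.

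The data comprised 82 arrays in 40 strain groups. There were 5 arrays of C57BL/6J, 1 of SWR/J and 2 of each of the 38 remaining groups. Each array measured a pool of male mice, untreated as far as the labels state, and the spleen cells had been sorted for CD3, CD4 and CD62L and against CD25 and markers of other blood lineages. The labels give 6 weeks as the age of the mice and the series description gives 5. The groups were 129S1/SvImJ, A/J, AKR/J, BALB/cByJ, BPL/1J, BTBR T+ tf/J, C3H/HeJ, C57BL/10J, C57BL/6J, C57BLKS/J, C57L/J, CAST/EiJ, CBA/CaJ, CBA/J, CE/J, DDY/JclSidSeyFrkJ, FVB/NJ, JF1/Ms, KK.Cg-Ay/J, LGJ, LP/J, MA/MyJ, MRL/MpJ, MSM/Ms, NOD/ShiLtJ, NON/ShiLtJ, NOR/LtJ, NZB/BINJ, NZW/LacJ, P/J, PL/J, PWD/PHJ, RIIIS/J, SEA/GnJ, SJL/J, SM/J, SWR/J and WSB/EiJ, with 2 groups named from the array titles. These are C57BR-titled, whose background is labelled CBA/CaJ, and DBA2-titled, whose background is labelled DBA/1LacJ. The strains JF1/Ms, MSM/Ms, CAST/EiJ and PWD/PHJ derive wholly or mainly from mouse subspecies other than Mus musculus domesticus and are called non-domesticus below. Values are linear intensities of a probe set, normalized by the authors, and differences are on the log2 scale. Intensities of different genes are not compared with each other, since probes differ in brightness.

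Markers of the labelled cell type were present on all arrays. The 9 measured markers of naive CD4 T cells of 12 listed averaged 11.64 to 12.17 on the log2 scale over all arrays. None of them had a median below that of all values. The 12 measured B cell markers of 14 listed had a median of 5.61, with 11 of 12 below that level. Of the 5 CD8 T cell markers 3 lay below it. Of the 8 regulatory T cell markers 0 did, although the cells were sorted against CD25. A median of 0.995 was found for the correlation between arrays of the same strain and of 0.988 between strains. Replicate 2 of PL/J, BTBR T+ tf/J, MRL/MpJ and A/J each correlated with its partner at no more than 0.9881. The arrays of CE/J, at 0.9891, and of C57BL/10J and SM/J, at 0.9894, were close to that and are not among these 4. Replicate 2 of CE/J and of SM/J had median correlations with all arrays of 0.9818 and 0.982, below the 0.9834 of replicate 2 of A/J. In PL/J the B cell markers averaged 5.69 on replicate 1 and 8.68 on replicate 2, and in A/J 5.71 and 7.26. The neutrophil list on that PL/J array was 7.55 against 5.74. For the members described in full whose lowest or highest strain rests on one of these 4 arrays, the extreme without them is given too.

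The promoters of Rcan3 and Txk are shown because Rcan3 had the widest range between strains of the whole set and Txk the widest among the kinases. Both are the 250 bases before the start site, 5′ to 3′ on the minus strand of the reference assembly GRCm38.p6 as RefSeq gives it, with capitals at matches of the core letters of NFAT sites and of the GC box, read on either strand. The core letters searched for NFAT were GGAAA on the strand shown or on the other one. The letters of the GC box, which is bound by SP-family factors at many start sites, were GGGCGG on either strand. The alleles of the other strains were not used here.
Rcan3 (chr4:135433806-135434055): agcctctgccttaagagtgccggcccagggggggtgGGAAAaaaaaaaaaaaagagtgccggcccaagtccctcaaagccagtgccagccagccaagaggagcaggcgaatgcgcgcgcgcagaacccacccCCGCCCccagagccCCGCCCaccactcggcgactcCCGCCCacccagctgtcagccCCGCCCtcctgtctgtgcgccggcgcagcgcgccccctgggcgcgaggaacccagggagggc
Txk (chr5:72752778-72753027): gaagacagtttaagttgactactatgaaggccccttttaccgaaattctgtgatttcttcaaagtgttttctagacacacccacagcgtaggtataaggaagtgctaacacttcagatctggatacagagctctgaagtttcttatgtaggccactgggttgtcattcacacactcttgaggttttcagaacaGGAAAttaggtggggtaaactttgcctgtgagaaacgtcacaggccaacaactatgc
The Rcan3 window was 70.0% G or C and held 4 matches to GGGCGG and 1 to GGAAA. The Txk window was 42.8% G or C and held 1 match to GGAAA and 0 to GGGCGG. Among all 32851 promoters of that table, GGAAA occurred in 55.6% and GGGCGG in 32.7%, and the median base composition was 52.4% G or C. The table held 47 promoters of 32 members, of which 30, or 63.8%, held GGAAA and 23, or 48.9%, held GGGCGG. A match of letters describes the window and shows no binding.

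The first question was how far each signalling gene varied between strains. The transcripts of most members differed by modest amounts between strains. Rcan3 spanned 4.44-fold between its lowest and highest strain and no other member more than 2.65-fold, while 35 of 36 members passed the F-test for variation between strains (limma, adjusted p under 0.05 over all probe sets). The background of that test was 47.6% of all probe sets, and 72.6% of the 14512 brighter probe sets, those that exceeded the median of all values in at least 1 strain. The median SD of strain means over the 36 members was 0.155 on the log2 scale, against 0.143 over all probe sets and 0.168 over the brighter ones. The median intraclass correlation, the share of variance lying between strains, was 0.579 for the members, 0.262 for all probe sets and 0.452 for the brighter ones.

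By role, the brakes had the largest median SD of strain means and the adaptors and transcription factors the smallest. The median SD was 0.172 over 12 brakes, 0.158 over 6 second-messenger, exchange-factor and calcium genes, 0.154 over 4 kinases and Ptprc, and 0.140 over both 8 adaptors and 5 transcription factors. The brakes also had the highest median intraclass correlation, 0.732, with 0.482 to 0.563 in the other classes. These are descriptions with no test, since genes of a class are not replicates of it. Leaving out the 4 arrays that stood apart gave medians of 0.166 for brakes, 0.156 for second-messenger genes, 0.134 for kinases and Ptprc, 0.141 for adaptors and 0.140 for transcription factors. Over the 36 domesticus-derived strains alone, the medians lay closer together, from 0.153 for brakes to 0.130 for transcription factors.

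**Figure D1:**
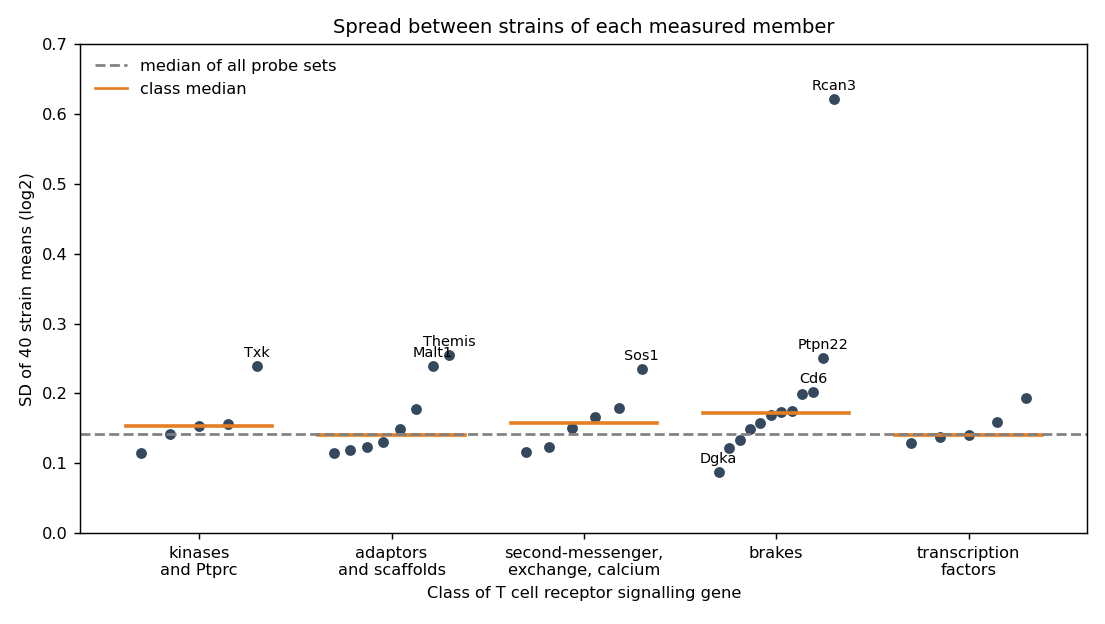
SD of the 40 strain means on the log2 scale for each of the 36 measured members, by class, with the class median as a bar and the median of all probe sets as a dashed line. Rcan3 lies at 0.621, far above the next member, Themis, at 0.255, and Dgka is lowest at 0.0870.

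Among the kinases, Txk differed most between strains. Txk, a Tec-family kinase, had array values of 1228 and 1317 in JF1/Ms, the lowest strain, a median strain mean of 2168, and 2651 on the single array of SWR/J, the highest. The 4 lowest strain means were those of the 4 non-domesticus strains, and the SD fell from 0.239 over 40 strains to 0.168 over the 36 others. The F-test gave an adjusted p of 1.18e-08 and an intraclass correlation of 0.744. Prkcq, protein kinase C theta, which links the receptor to NF-κB, was among the 3 steadiest members. Its arrays read 3878 and 3267 in MRL/MpJ, the lowest strain, the median strain mean was 4312, and the array of SWR/J read 4928 (SD 0.114, adjusted p = 0.00495). Fyn, a Src-family kinase, and Zap70, the kinase that binds phosphorylated receptor chains, had SDs of 0.154 and 0.142. Ptprc encodes CD45, the phosphatase that keeps Src-family kinases ready for use. Its arrays read 4638 and 2672 in BTBR T+ tf/J, the lowest strain, and 6287 and 6310 in BALB/cByJ, the highest, around a median of 5082. Without the 4 arrays that stood apart, the lowest strain was DBA2-titled at 3982 for Ptprc and C57BL/10J at 3803 for Prkcq. The C57BL/10J arrays of Prkcq were unlike, at 4305 and 3360. After centring each array on its median, Fyn and Prkcq no longer passed the F-test (adjusted p = 0.0626 and 0.07).

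Of the adaptors, Themis and Malt1 varied most, and in both the lowest strain rested on a single array. Themis, an adaptor best known from thymocyte selection, read 1504 and 719.4 in BTBR T+ tf/J, 2421 and 2351 in KK.Cg-Ay/J, the highest strain, and had a median strain mean of 1763 (SD 0.255, adjusted p = 2.92e-07). Without the 4 arrays that stood apart, the lowest strain was DBA2-titled with 1176, the SD was 0.222 and the intraclass correlation 0.814. Malt1, the protease of the complex with BCL10 that activates NF-κB, read 1023 and 540.7 in BTBR T+ tf/J and 1765 and 2194 in PWD/PHJ, around a median of 1038 (SD 0.239, adjusted p = 1.68e-05). Its SD was 0.184 over the 36 domesticus-derived strains. Without the 4 arrays that stood apart its lowest strain was A/J at 800.4, on the single array left of that strain. Sh2d2a, the T cell-specific adaptor that binds LCK, ran from 1257 on the array of SWR/J to 1893 and 1927 in DBA2-titled, with a median strain mean of 1577 (SD 0.177, adjusted p = 3.47e-05). The central scaffold genes varied less. Lcp2, which encodes SLP-76, read 3063 and 3131 in JF1/Ms and 4354 and 4320 in NON/ShiLtJ around a median of 3770 (SD 0.115, adjusted p = 0.0107). Lat, Grap2, Grb2 and Bcl10 had SDs of 0.119, 0.123, 0.130 and 0.150, and all 4 passed the F-test.

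Plcg1 and Stim1 stood out among the genes of second messengers and calcium by low values in few strains. Plcg1, the phospholipase that makes inositol trisphosphate and diacylglycerol, read 935.1 and 896.8 in JF1/Ms and 1693 and 1767 in KK.Cg-Ay/J, with a median strain mean of 1497 (SD 0.167, adjusted p = 1.68e-07). Its SD over the 36 domesticus-derived strains was 0.107. Stim1, the calcium sensor of the endoplasmic reticulum, read 460.2 and 457.8 in RIIIS/J and 765.9 and 816.1 in NZW/LacJ around a median of 679.8 (SD 0.179, adjusted p = 3.88e-07). SM/J was a further low strain for Stim1, named after its value was seen, at -0.52 against the mean of the others (limma, adjusted p = 4.78e-06). Sos1, an exchange factor for Ras, had a wide spread that came with the largest spread between replicates of these 6 genes. It read 390.5 and 212.8 in BTBR T+ tf/J and 619 and 657.2 in PWD/PHJ, with a median of 420.5, an SD of strain means of 0.235 and a replicate SD of 0.204 (adjusted p = 0.00087). Without the 4 arrays that stood apart, SM/J was lowest for Sos1 at 303.5, with unlike arrays of 401 and 229.7, and the SD was 0.208. Orai1, the channel that STIM1 opens, Vav1 and Rasgrp1, both exchange factors, had SDs of 0.150, 0.124 and 0.117. Orai1 missed the F-test after centring (adjusted p = 0.0998).

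Rcan3, a member of the regulators of calcineurin that bind the phosphatase upstream of NFAT, varied most of all members and fell into 2 separate ranges. Its arrays read 139.6 and 145.6 in SEA/GnJ, the lowest strain, and 653.1 and 611.9 in AKR/J, the highest, around a median strain mean of 462, a range of 4.44-fold (SD 0.621, replicate SD 0.103, adjusted p = 7.53e-29). A total of 9 strains had means from 142.5 to 218.7 and 31 had means from 413.3 to 632.2, with an empty interval of 0.92 on the log2 scale between them. The next largest gap between neighbouring strains was 0.16, and no array of the lower strains read above 251.3 while none of the others read below 400.8.

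The low range of Rcan3 held all 4 non-domesticus strains and 5 domesticus-derived ones. The arrays read 148.6 and 169.6 in PWD/PHJ, 167.8 and 190.5 in JF1/Ms, 210.9 and 176.1 in MSM/Ms, and 227.4 and 207.3 in CAST/EiJ. They read 168.6 and 153.3 in KK.Cg-Ay/J, 191 and 173.4 in P/J, 197.8 and 234.9 in DDY/JclSidSeyFrkJ, and 190.3 and 251.3 in C57BL/10J. The last of these is a close relative of C57BL/6J, whose 5 arrays read 482.7, 474.7, 516.7, 520.5 and 507.3, all above both C57BL/10J arrays. The other strains of the C57 family lay in the high range too, with 402.5 and 424.4 in C57L/J, 400.8 and 436.8 in C57BR-titled and 484.8 and 438.3 in C57BLKS/J. The SD of Rcan3 lay at percentile 98.7 of all probe sets.

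**Figure D2:**
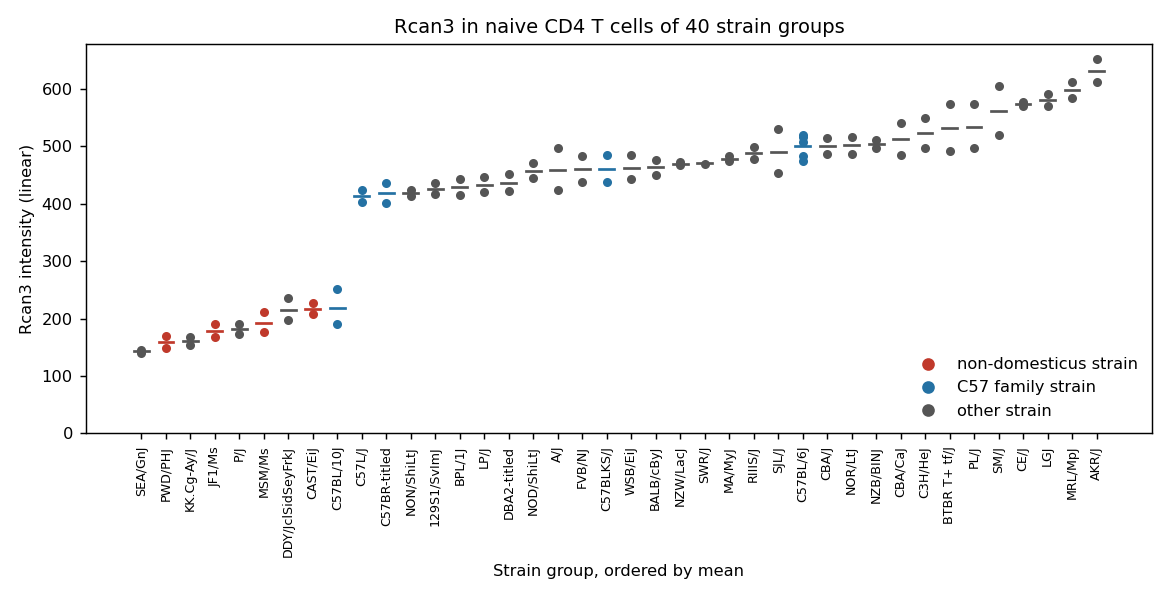
Linear Rcan3 intensity of every array (points) with the strain mean (bar), strains ordered by mean, coloured by non-domesticus, C57 family and other strains. A total of 9 strains lie at or below 218.7 and 31 at or above 413.3, with C57BL/10J low and C57BL/6J high.

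The other brakes varied by at most 2.28-fold between their extreme strains. Ptpn22, the phosphatase that acts with CSK on Src-family kinases, read 914 and 721.5 in PL/J and 1791 and 1920 in PWD/PHJ around a median of 1247 (SD 0.251, adjusted p = 1.53e-08). Without the 4 arrays that stood apart, RIIIS/J was lowest at 821.3. Pag1, the membrane adaptor that anchors CSK, read 518.8 and 581.3 in A/J and 1019 and 1005 in MSM/Ms around a median of 683.1 (SD 0.200, adjusted p = 6.07e-08), and A/J stayed lowest without its replicate 2. Both genes were high in the non-domesticus strains.

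The surface brakes were low in CAST/EiJ. Cd5, a receptor that dampens the signal, read 2615 and 2801 in CAST/EiJ and 4782 and 4664 in MA/MyJ around a median of 3783 (SD 0.175, adjusted p = 1.09e-09). Its intraclass correlation of 0.839 was second to that of Rcan3. Cd6, a related receptor that binds CD166, read 875.9 and 1008 in CAST/EiJ and 1744 and 1662 in CE/J around a median of 1299 (SD 0.202, adjusted p = 2.81e-09). Ubash3a, a phosphatase family member that restrains ZAP-70, read 931.7 and 855.4 in MSM/Ms and 1552 and 1549 in NZB/BINJ around a median of 1362 (SD 0.174, adjusted p = 7.13e-09). Cblb, a ubiquitin ligase that sets the threshold for costimulation, read 1546 and 1488 in CBA/CaJ around a median of 2086. Its highest strain, C3H/HeJ, had arrays of 2950 and 2190 (SD 0.169, adjusted p = 6.09e-06).

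Dgka, a lipid kinase that removes diacylglycerol, was the steadiest member and the 1 that missed the F-test. It read 8876 and 7489 in MRL/MpJ and 10240 and 11230 in FVB/NJ around a median of 9712, and its SD of strain means of 0.0870 was close to its replicate SD of 0.0847 (adjusted p = 0.125). Without the 4 arrays that stood apart, A/J was lowest at 8260, on the single array left of that strain. It passed after quantile normalization (adjusted p = 0.000729), with a trended and robust prior (0.0171) and with an offset before log2 (0.0255). The related Dgkz had 2 probe sets, whose strain means correlated at 0.293 over 40 strains, so the choice of probe set changes what is read. The SDs of Ptpn6, Csk and Cbl, which encode the phosphatase SHP-1, the kinase that inactivates LCK and FYN, and a ubiquitin ligase, were 0.157, 0.134 and 0.123.

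Rela was the transcription factor gene with the widest spread, most of it from the non-domesticus strains. This subunit of NF-κB read 599.7 and 718.8 in MSM/Ms and 1205 and 1444 in BTBR T+ tf/J around a median of 1073 (SD 0.194, adjusted p = 1.1e-08), and its SD over the 36 other strains was 0.123. Without the 4 arrays that stood apart, 129S1/SvImJ was highest at 1271. Rel, the NF-κB subunit of activated lymphocytes, read 868.8 and 865.0 in MSM/Ms and 1351 and 1478 in RIIIS/J around a median of 1178 (SD 0.160, adjusted p = 0.00757). Nfatc1, Nfatc2 and Nfatc3, the calcium-dependent NFAT genes, had SDs of 0.138, 0.140 and 0.130.

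The second question was which strains stood apart. Each strain was set against the mean of the 39 others, by contrasts that share arrays, and 180 of 1440 combinations of member and strain passed (limma, adjusted p under 0.05), 12.5% against a background of 6.39% over all probe sets. Of these, 75 were higher and 105 lower. With each array centred on its median, 112 passed, 35 higher and 77 lower, so that the higher share went from 41.7% to 31.2%. Over all probe sets, the higher share of calls was 50.9%, with 32405 higher and 31288 lower. After centring it was 49%, with 24084 higher and 25048 lower. A difference of at least 2-fold was met by 6 combinations, 0.417% against a background of 0.493%, and all 6 were Rcan3 below the others. The median replicate SD was 0.103 over the members and 0.16 over all probe sets. No background of the brighter probe sets was computed for these contrasts or for the counts per strain. A share above the background is therefore not read as a trait of signalling genes.

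Rcan3 was lower by 1.49 ± 0.08 (SE) in SEA/GnJ on the log2 scale, with 142.5 against a mean of 401.2 over the others (adjusted p = 2.51e-20). The other differences past 2-fold were -1.33 in PWD/PHJ, -1.32 in KK.Cg-Ay/J, -1.16 in JF1/Ms, -1.13 in P/J and -1.05 in MSM/Ms, with an SE of 0.08 each. Rcan3 passed the test lower in 9 strains and higher in 19, up to 0.71 in AKR/J. The mean of the others, from 386.2 for AKR/J to 401.2 for SEA/GnJ, lay in the empty interval between the ranges of Rcan3. All strains of the upper range were therefore above it, and a higher call shows no raised level within that range.

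For several other members, the strain with the largest difference was a non-domesticus one. The share of all probe sets with their largest difference in such a strain was not computed, so this is not read as a trait of the members. The differences that follow passed with all arrays and without either array of the strain. Malt1 was higher in PWD/PHJ by 0.93 ± 0.12 (adjusted p = 1.86e-08). Txk and Plcg1 were lower in JF1/Ms, by -0.73 ± 0.09 and -0.70 ± 0.07 (adjusted p = 2.1e-08 and 3.46e-11). In MSM/Ms, Rela differed by -0.70 ± 0.08 (adjusted p = 2.28e-10), Ubash3a by -0.57 ± 0.07 (2.67e-09) and Pag1 by 0.58 ± 0.08 (2.87e-07). Ptpn22 was higher in PWD/PHJ by 0.63 ± 0.10 (4.61e-06) and Stim1 lower in RIIIS/J by -0.55 ± 0.08 (1.43e-06). Cd5 and Cd6 were lower in CAST/EiJ, by -0.46 ± 0.06 (1.06e-07) and -0.45 ± 0.08 (1.16e-05). Ptpn6 was higher in MA/MyJ by 0.41 ± 0.07 (6.42e-05), a domesticus-derived strain.

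Further strains of Ptpn22, Cd5 and Cd6, named after their values were seen, were domesticus-derived. Ptpn22 differed by -0.60 in PL/J, -0.59 in MRL/MpJ and -0.58 in RIIIS/J (adjusted p = 1.97e-05, 5.45e-05 and 6.34e-05). Without replicate 2 of the strain these were -0.43, -0.42 and -0.48 (0.0615, 0.154 and 0.0898), lower in all 3 strains but no longer past the threshold. Cd5 and Cd6 were both lower in SJL/J, by -0.40 and -0.37 (adjusted p = 1.05e-05 and 0.000823), and Cd6 without replicate 1 was -0.34 (0.0501). Cd5 passed in 11 strains, 6 higher and 5 lower, and Cd6 in 9, 4 higher and 5 lower.

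Several differences lost much of their size without 1 array of the strain. Themis in BTBR T+ tf/J was -0.78 ± 0.11 (adjusted p = 1.16e-06) with both arrays and -0.25 (0.911) without replicate 2. Ptprc in that strain was -0.53 ± 0.11 (0.000418) and -0.13 (adjusted p = 1) without it. Fyn in BALB/cByJ was 0.39 ± 0.11 (0.021) and 0.16 (0.887) without replicate 1, and Zap70 in FVB/NJ was -0.32 ± 0.09 (0.0225) and -0.12 (0.995) without replicate 2. In MRL/MpJ without replicate 2, Nfatc3 went from -0.39 ± 0.08 (0.000442) to -0.24 (0.359), Prkcq from -0.27 (0.0102) to -0.15 (0.599), Cbl from -0.30 (0.0114) to -0.15 (0.644) and Dgka from -0.24 (0.0181) to -0.12 (0.673). Bcl10 in PL/J went from -0.37 (0.00282) to -0.19 (0.481) and Grb2 in RIIIS/J from -0.29 (0.0273) to -0.14 (0.998) without replicate 2.

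Other differences lost the call without 1 array and a smaller part of their size. A strain of 2 arrays is then left with 1. Sos1 in PWD/PHJ was 0.61 ± 0.14 (adjusted p = 0.000967) and 0.57 (0.0562) without replicate 2, and Cblb in CBA/CaJ was -0.45 ± 0.08 (0.000256) and -0.42 (0.0873) without replicate 2. In RIIIS/J without replicate 2, Vav1 went from -0.39 ± 0.08 (0.000355) to -0.30 (0.228), Lat from -0.32 (0.00248) to -0.27 (0.31) and Csk from -0.30 (0.00775) to -0.22 (0.617). In MSM/Ms without replicate 1, Rel was -0.45 (0.0738) as with both arrays (-0.45, 0.00229), Nfatc1 went from 0.33 (0.00215) to 0.31 (0.0926) and Rasgrp1 from -0.31 (0.000466) to -0.28 (0.0632). Lcp2 in JF1/Ms was -0.28 (0.011), and -0.26 (0.248) and -0.29 (0.137) without either array. Nfatc2 in NZB/BINJ was 0.37 (0.00542), and 0.31 (0.411) and 0.42 (0.0689) without either array. Orai1 in AKR/J was 0.34 (0.0353), and 0.25 (adjusted p = 1) and 0.44 (0.131) without either array. Grap2 in KK.Cg-Ay/J was 0.25 (0.0292), and 0.30 (0.129) and 0.20 (0.835) without either array. The largest difference of Sh2d2a, -0.33 in SWR/J, did not pass (0.317).

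The number of members that passed was highest in BTBR T+ tf/J, 18 of 36 against a background of 13.1% of all probe sets, but it rested on replicate 2. Without that array 0 members passed, and without replicate 1 it was 23. RIIIS/J had 16 (background 10.1%), 1 without its replicate 2 and 11 without replicate 1, and MRL/MpJ had 10 (background 11.3%), 1 without replicate 2 and 12 without replicate 1. The non-domesticus strains still had members past the threshold without either array. MSM/Ms had 15 (background 12.5%), with 4 and 7 after leaving out an array, and PWD/PHJ had 14 (background 16.1%), with 6 and 8. CAST/EiJ had 11 (background 17.7%), with 4 and 5, and JF1/Ms had 11 (background 11.4%), with 6 and 6. After centring arrays on their medians, the counts were 8 in BTBR T+ tf/J, 10 in RIIIS/J, 4 in MRL/MpJ, 9 in MSM/Ms, 10 in PWD/PHJ, 14 in CAST/EiJ and 8 in JF1/Ms. The backgrounds given are those of the fit to all arrays without centring. Per strain, the shares of all probe sets without an array or after centring were not computed. The counts in those settings are therefore not set against a background. The median of all probe sets differed from the other strains by 0.11 on the log2 scale in CAST/EiJ, and by at most 0.09 in size in any other strain.

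The directions of the calls differed between strains, with scaling as a condition. Per strain, the split of all probe sets into higher and lower was not computed. The directions below therefore describe the called members and are not read as a trait of signalling genes. All 11 members called in CAST/EiJ were lower, although after quantile normalization 3 of 9 were higher. JF1/Ms had 2 higher and 9 lower, and MRL/MpJ 1 higher and 9 lower, or 1 and 3 after centring. RIIIS/J had 5 higher and 11 lower, which became 6 and 8 after quantile normalization and 0 and 10 after centring. MSM/Ms had 7 higher and 8 lower, or 3 and 6 after centring and 8 and 7 after quantile normalization. PWD/PHJ had 7 and 7, or 5 and 9 after quantile normalization and 6 and 4 after centring. At the other end, 0 members passed in C57BLKS/J, C57BR-titled, C57L/J, LP/J, NOD/ShiLtJ and NON/ShiLtJ. The backgrounds there were low, from 1.97% of all probe sets in NOD/ShiLtJ to 3.83% in NON/ShiLtJ, so a count of 0 lies near them. SWR/J had a single array, so its count is not read.

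**Figure D3:**
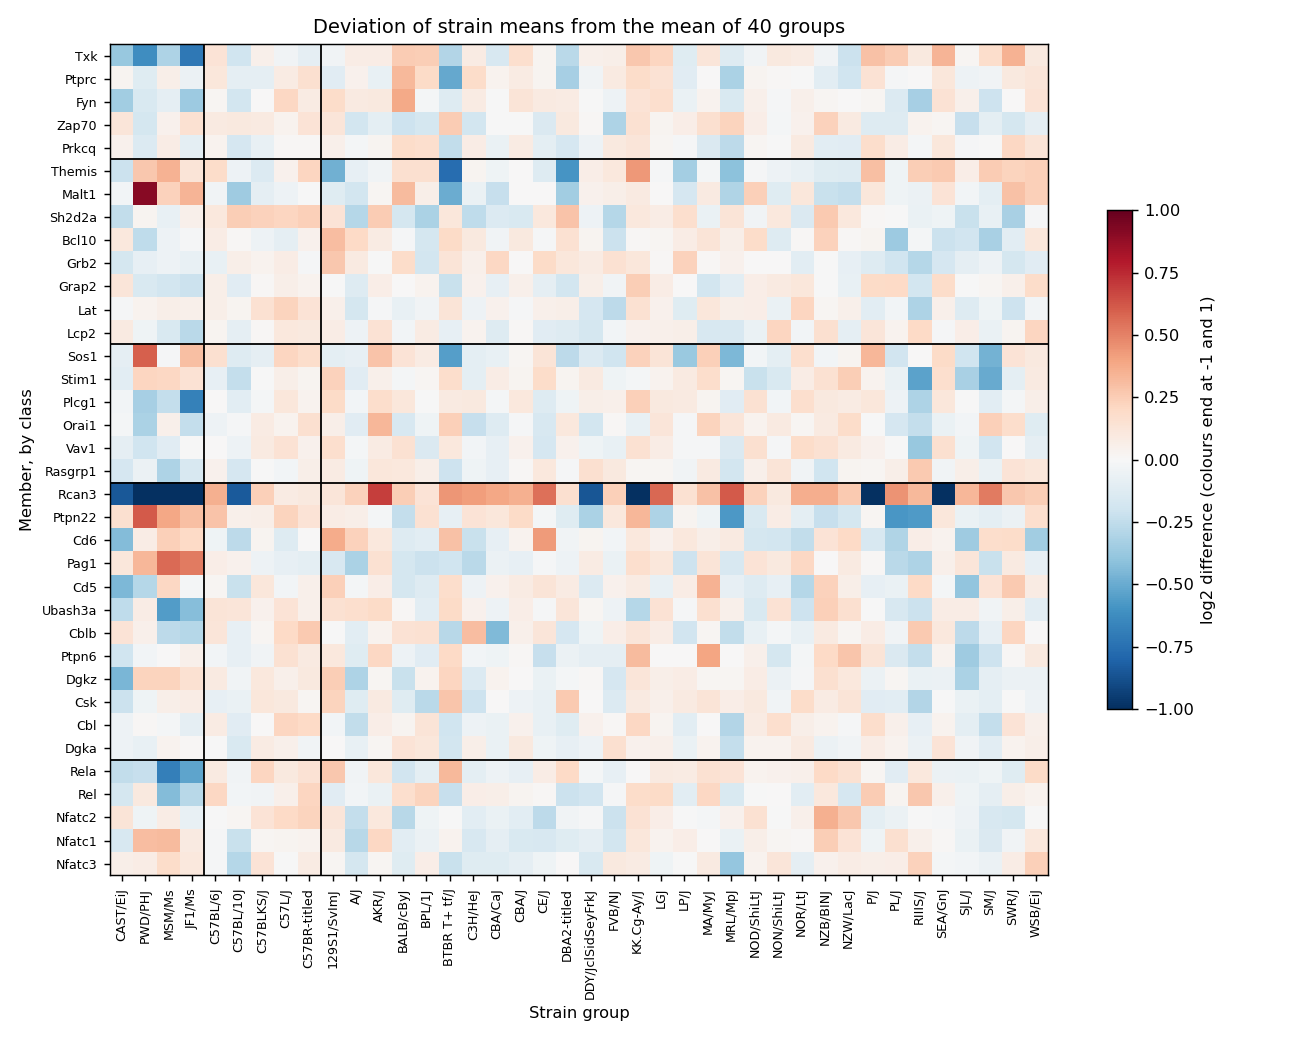
Deviation of each strain mean from the mean of 40 groups on the log2 scale, for the 36 members (rows, by class) and the strains (columns, the 4 non-domesticus first, then the C57 family, then the others). The row of Rcan3 is the darkest, with 9 blue strains, and BTBR T+ tf/J, whose replicate 2 stood apart, has the lowest Themis, Malt1, Sos1 and Ptprc.

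The third question was whether subspecies origin went with the level of signalling genes. In the 4 non-domesticus strains, Rcan3, Txk, Rela, Plcg1, Ubash3a, Fyn and Rasgrp1 were lower, and Pag1, Ptpn22 and Malt1 higher, than in the 36 other strains (limma on strain means, so that a strain is the replicate). That was 10 of 36 members against 8.73% of all probe sets. A background of the brighter probe sets was not computed for this comparison either. The 3 higher members compare with a background of 4.96% and the 7 lower ones with 3.77%. The median difference was -0.04 over the members and 0.02 over all probe sets. Mismatches of probes to the sequence of these strains were not tested.

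Txk and Rela were the members whose strain means did not overlap between both sets. The share of all probe sets without overlap was not computed, so this describes these genes and is not set against a background. The non-domesticus arrays of Txk read 1540 and 1671 in CAST/EiJ, 1231 and 1489 in PWD/PHJ, 1648 and 1724 in MSM/Ms, and 1228 and 1317 in JF1/Ms. The strain means ran from 1271 to 1686 against 1697 to 2651 in the others, and the difference was -0.56 ± 0.09 (adjusted p = 1.04e-05), so the gap between the sets was narrow. Rela read 907.7 and 874.2 in CAST/EiJ, 908.9 and 893.1 in PWD/PHJ, 599.7 and 718.8 in MSM/Ms, and 747.5 and 712.2 in JF1/Ms. Its strain means ran from 656.6 to 901 against 922 to 1319, a difference of -0.47 ± 0.07 (adjusted p = 5.26e-06). MSM/Ms and JF1/Ms, both derived from Japanese mice, were the lowest for Rela.

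The other lower members overlapped with the domesticus-derived range. Plcg1 read 1428 and 1446 in CAST/EiJ, 1094 and 1241 in PWD/PHJ, 1278 and 1208 in MSM/Ms, and 935.1 and 896.8 in JF1/Ms, and differed by -0.36 ± 0.07 (adjusted p = 0.000242). Rcan3 had a family mean of 185.6 against 424.7 (-1.19 ± 0.26, adjusted p = 0.00113), while 5 domesticus-derived strains lay in the same low range. Ubash3a read 1411 and 1353 in PWD/PHJ, within the range of the others, and 855.4 to 1107 in the other 3 strains (-0.33 ± 0.08, adjusted p = 0.00277). Without MSM/Ms it was -0.24 (0.0864). Fyn had means of 1583 against 1904 (-0.27 ± 0.07, adjusted p = 0.00869), with -0.23 (0.0652) without CAST/EiJ and -0.23 (0.0878) without JF1/Ms. Rasgrp1 had 4190 against 4790 (-0.19 ± 0.06, adjusted p = 0.02), with -0.19 (0.0512) without CAST/EiJ, -0.15 (0.203) without MSM/Ms, -0.20 (0.0553) without JF1/Ms and -0.17 (0.149) after quantile normalization.

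Of the higher members, Pag1 was above the mean of the others in all 4 strains and passed without any one of them. Its arrays read 728.9 and 753.4 in CAST/EiJ, 854.6 and 871.9 in PWD/PHJ, 1019 and 1005 in MSM/Ms, and 933.7 and 1026 in JF1/Ms, and the difference was 0.42 ± 0.08 (adjusted p = 0.000219). The CAST/EiJ mean lay within the range of the others, up to 792. Ptpn22 read 1298 and 1413 in CAST/EiJ, 1791 and 1920 in PWD/PHJ, 1613 and 1561 in MSM/Ms, and 1494 and 1499 in JF1/Ms (0.40 ± 0.11, adjusted p = 0.0157). The difference was 0.32 (adjusted p = 0.13) without PWD/PHJ, 0.40 (0.0639) without MSM/Ms and 0.37 (0.0507) after centring arrays. Malt1 read 1035 and 1028 in CAST/EiJ, 1765 and 2194 in PWD/PHJ, 1193 and 1267 in MSM/Ms, and 1296 and 1356 in JF1/Ms (0.40 ± 0.11, adjusted p = 0.00965), and without PWD/PHJ the difference was 0.22 (0.241).

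Among the members that did not pass, Rel differed by -0.22 ± 0.08 (adjusted p = 0.0653), and passed after quantile normalization (0.038) and without PWD/PHJ (0.0101). Dgkz depended on the probe set. Its brighter probe set had a strain mean of 750.8 in CAST/EiJ against 1201, 1201 and 1145 in PWD/PHJ, MSM/Ms and JF1/Ms, and the difference of 0.04 did not pass (adjusted p = 0.872). On its second probe set the same strains read 189.2, 294.6, 281 and 268.3 against a median of 163.6 over all strains, a difference of 0.65 (8.22e-08). For CAST/EiJ alone the brighter probe set gave -0.47 ± 0.08 (5.02e-06) and the second 0.16 (0.424).

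**Figure D4:**
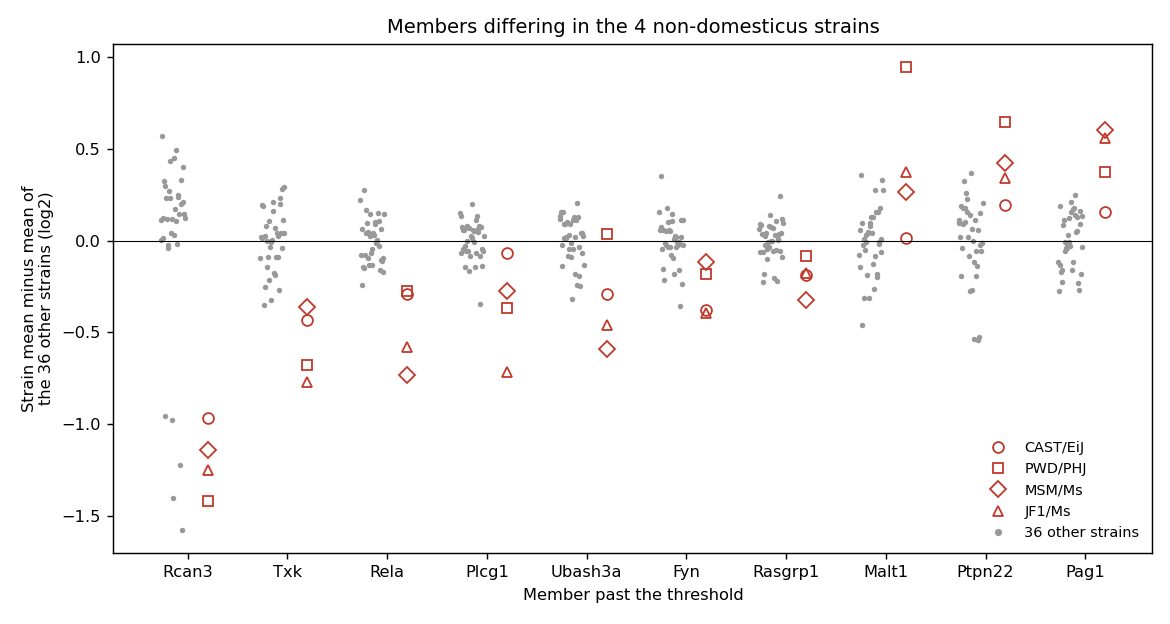
Strain means minus the mean of the 36 other strains (log2) for the 10 members that differed between the 4 non-domesticus strains (open red symbols) and the 36 others (grey points). Txk and Rela do not overlap between the sets, whereas 5 grey points lie beside the low Rcan3 values.

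Lists of cell markers had other ranges on the non-domesticus arrays. The 5 genes of the receptor complex averaged 11.24 to 11.44 on the 8 non-domesticus arrays and 11.30 to 11.80 on the 74 others. The regulatory T cell list, of 8 genes, averaged 7.50 to 8.30 against 7.88 to 9.10, and the list of activated or memory T cell markers, 9 measured of 10, 7.70 to 7.86 against 7.04 to 7.79. The 5 CD8 T cell markers averaged 7.32 to 7.65 against 6.58 to 7.67, with 3 of them below the median of all values. The 10 myeloid markers had a median of 6.31 against 5.83, with 9 of 10 below the median of all values, and the 7 NK cell markers reached 5.21 against 4.82, with all 7 below it. Lyz2, a myeloid gene, and Gzma, an NK cell gene, were highest in CAST/EiJ, at 1563 and 322.7 against median strain means of 50.25 and 28.3. The genes of a list did not all go the same way. Itgam, of the myeloid list, was lowest in CAST/EiJ, at 58.56 against a median of 91.9. Of the CD8 list, Cd8b1 was lowest in CAST/EiJ (205.9, median 593.2) and Klrd1 highest in JF1/Ms (1982, median 209.4). B cell markers averaged 5.45 to 5.71 against 5.40 to 8.68, with 11 of 12 below the median of all values. The part of these shifts in the results on members was not tested. In sorted bulk cells, a smaller share of cells of a type and less RNA per cell cannot be told apart.

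The 5 strains of the C57 family, C57BL/6J, C57BL/10J, C57BLKS/J, C57L/J and C57BR-titled, did not differ from the 31 other domesticus-derived strains in any member past the threshold (limma on strain means, 0 of 36, background 0.582%). At an unadjusted p under 0.05 there were 3 members. The share of all probe sets at that unadjusted threshold was not computed, so this count is not read. The median difference was 0.02 over the members and -0.0029 over all probe sets. Within the family, C57BL/10J was low for Rcan3 as given above.

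The fourth question was whether partners in the pathway varied together. Over the 36 domesticus-derived strains, 17 pairs of members that bind, oppose or resemble each other were correlated on strain means, with p-values from 100000 permutations of strains adjusted over the pairs. Members that are not partners were not correlated. The values of r below are therefore not set against a background, and whether partners vary together more than other members was not tested. The closest pairs were the calcium-dependent factors Nfatc1 and Nfatc2 (r = 0.73, rho = 0.72, adjusted permutation p = 8.5e-05 and 0.00017) and the receptors Cd5 and Cd6 (r = 0.67, rho = 0.68, adjusted permutation p = 8.5e-05 and 0.00017). The raw p of r was 1e-05 for both, the smallest that the permutations can give. Without the 2 strains farthest from the median of the first gene, r was 0.65 and 0.59. Cd5 and Cd6 are neighbouring genes in the reference order.

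The ubiquitin ligases Cbl and Cblb came next (r = 0.58, rho = 0.57, adjusted permutation p = 0.00108 and 0.00176), and r was 0.53 without the 2 farthest strains. SLP-76 and its partner GADS, encoded by Lcp2 and Grap2, gave r = 0.46 and rho = 0.47 (adjusted permutation p = 0.0197 and 0.0159). Csk and its anchor Pag1 gave r = 0.40 and rho = 0.44 (adjusted permutation p = 0.0365 and 0.029). Over all 40 strains Csk and Pag1 had r = 0.29 (adjusted permutation p = 0.158). For Lcp2 and Grap2 and for Csk and Pag1, r was 0.40 and 0.43 without the 2 farthest strains.

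The last 3 pairs that passed by r did not pass by rho. They were Cd5 with Ptpn6 (r = 0.45, rho = 0.33, adjusted permutation p = 0.0197 and 0.132), Rasgrp1 with Sos1 (0.44, 0.31, 0.0197 and 0.158) and Lat with Plcg1 (0.40, 0.29, 0.0365 and 0.186). Lat with Plcg1 fell to r = 0.24 without FVB/NJ and RIIIS/J, the 2 farthest strains, so that relation rests on them. Without the 2 farthest strains the others gave 0.35 and 0.37. Over all 40 strains, r was 0.25 for Rasgrp1 with Sos1 (adjusted permutation p = 0.231) and 0.15 for Lat with Plcg1 (0.479). After centring arrays, all 3 passed by rho, with adjusted permutation p of 0.0159, 0.00765 and 0.00823.

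The pairs with the lowest r did not pass. Rel and Rela had r = -0.27 (adjusted permutation p = 0.203), Bcl10 and Malt1 -0.23 (0.287), Dgka and Dgkz -0.18 (0.368), Lat and Lcp2 -0.18 (0.368), Themis and Ptpn6 -0.09 (0.654), and Csk and Ptpn22 0.02 (0.916). After quantile normalization, r was -0.52 for Bcl10 and Malt1 (adjusted permutation p = 0.00445, and 0.00204 by rho). For Rel and Rela it was -0.40 (0.031, and 0.0676 by rho). After centring arrays, r was -0.03 for Bcl10 and Malt1 and -0.04 for Rel and Rela (adjusted permutation p = 0.88 for both). Over all 40 strains, r was -0.34 and 0.28 for these pairs (0.087 and 0.163), so both relations depended on the setting. Strains share descent and genes share arrays, so the permutation p-values take strains as more independent than they are.

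**Figure D5:**
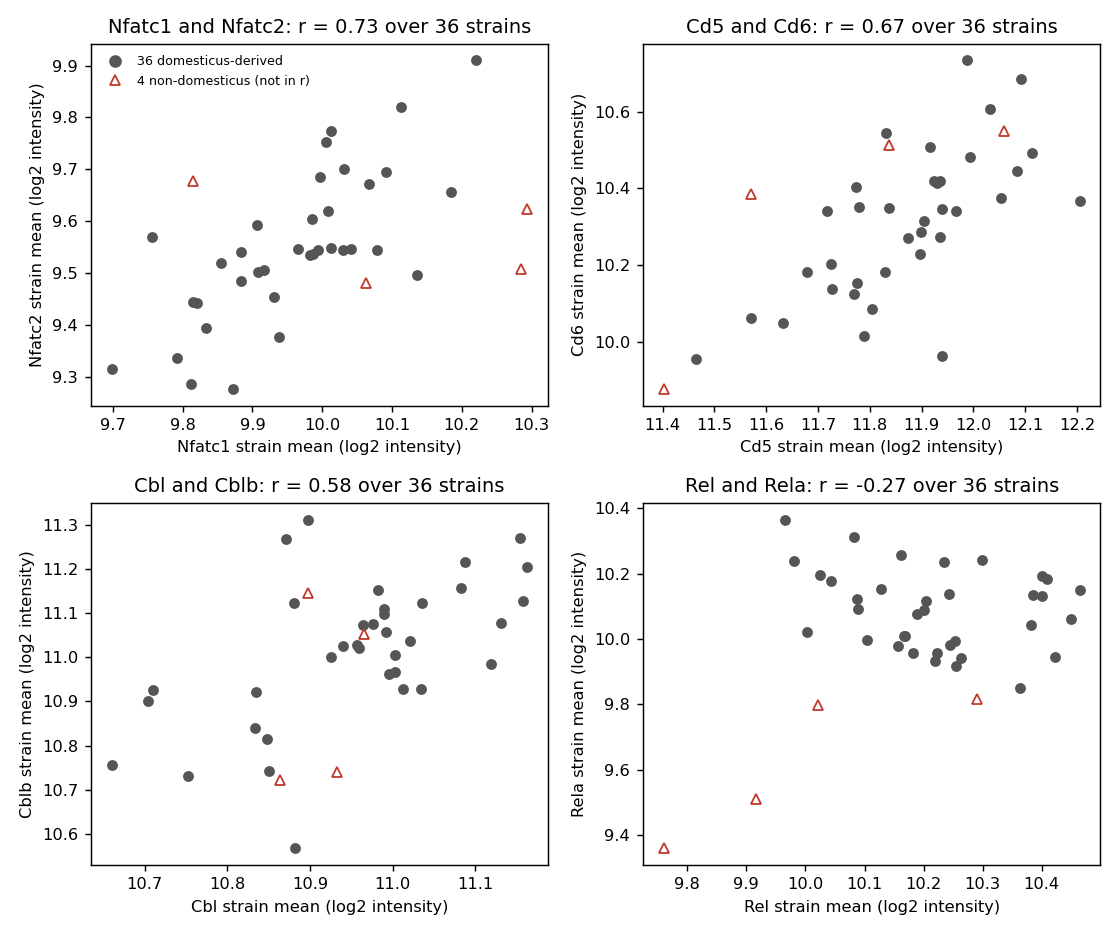
Strain means (log2 intensity) of 4 pairs of members, with r over the 36 domesticus-derived strains (filled points) and the 4 non-domesticus strains drawn as triangles and left out of r. Nfatc1 with Nfatc2, Cd5 with Cd6 and Cbl with Cblb rise together (r of 0.73, 0.67 and 0.58), and Rel with Rela does not (r of -0.27).

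Other genes of the pathway, from a list of 76 of which 66 were measured, had a median SD of strain means of 0.172, and 60 of 66 passed the F-test. The members had 0.155 and 35 of 36. Of that list, the widest was Pdk1, in the list although it encodes pyruvate dehydrogenase kinase, with strain means from 180.5 in CAST/EiJ to 1436 in C57BL/6J (SD 1.08). Dok2, an adaptor that recruits Ras inhibitors, ran from 323 in SWR/J to 1028 in MSM/Ms (SD 0.513), and Dusp6, a phosphatase of ERK, from 154.5 in WSB/EiJ to 586.4 in NOD/ShiLtJ (SD 0.496). Orai2, a relative of Orai1, ran from 1269 in MSM/Ms to 6461 in PWD/PHJ (SD 0.368). Trat1, an adaptor of the receptor complex, ran from 888.5 in C57BLKS/J to 2728 in MSM/Ms (SD 0.343). Ptprj, Ubash3b and Nfat5 had SDs of 0.330, 0.296 and 0.278. The genes that did not pass were Ikbkg, Tab2, Rnf128, Rcan1, Pak2 and Rac1, and Rcan1 is a relative of Rcan3.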

How the data were processed

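RNA of sorted naive CD4 T cells was measured on Affymetrix ST1.0 arrays. Per the submitters' processing notes, the authors used RMA and Affymetrix Power Tools, whose versions are not given in the sources used here, nor are the annotation and genome build. The table deposited by the authors gives 1 normalized linear intensity per probe set and array, with array medians from 102.1 to 141.8. The number of arrays, 2 in most groups, limits the precision. Values were taken to log2 with no filter or further normalization. The probe set with 1 symbol and the highest mean stood for a gene. Of all probe sets, 21425 had 1 symbol, 1399 several and 2098 none.

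Tests used limma 3.58.1 under R 4.3.3 (lmFit, eBayes), on 1 coefficient per strain group over all 82 arrays, with 42 residual and 8.09 prior degrees of freedom, and on strain means for the 2 family comparisons. Adjusted p-values are those of Benjamini-Hochberg across the 24922 probe sets, and 0.05 was the threshold. In the C57 comparison 36 strains entered, and WSB/EiJ, a wild-derived domesticus strain, was among the others. Pair correlations were computed in Python 3.11.15 with two-sided permutation tests. The series text calls the arrays of a group biological replicates, each from a pool of mice, so p-values rest on the spread among pools. Scripts were tested on simulated data. Replicate numbers did not pair samples. The members, classes, pairs and marker lists were chosen with earlier results of these data known. Named were the 15 members with the widest and the 3 with the narrowest spread, every strain difference of at least 2-fold, the largest strain difference of other members, every member past a family comparison, and pairs past the threshold or with the lowest r. Alternatives were quantile normalization, centring of arrays, an offset of 32 before log2, the second probe set, leaving out arrays or strains, a filter on the dimmest 40 percent of probe sets, a trended and robust prior and a replicate block. Leaving out the 4 arrays that stood apart was added after the data were seen. Sequences came from RefSeq promoters of GRCm38.p6, matched by symbol for 32 of 38 members.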

Additional observations from a re-analysis of the deposited data

Results flagged for a closer look

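Among 108 groups of 4 or 5 values, 6 had a sample far from the others by Dixon's ratio, the gap to the nearest value over the whole range. Chance flags about 1 in 20 groups, which is close to the number found. In the C57 family, C57BL/10J lay apart at the low end for 3 members. For Rcan3 the ratio was 0.769 (218.7 against 413.3 in the nearest strain), for Malt1 it was 0.758 (821.4 against 985.7) and for Nfatc1 0.816 (864.7 against 999.5). For Sh2d2a, C57BL/6J stood apart with a ratio of 0.743 (1693 against 1819). Among the 5 arrays of C57BL/6J, replicate 1 was low for Rasgrp1 with a ratio of 0.925 (4611 against 4931). Among the non-domesticus strains, CAST/EiJ was low for Dgkz with a ratio of 0.9 (750.7 against 1146), on the brighter of its probe sets.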

How the results depend on the processing

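The count of members that varied between strains was 35, with 34 to 36 when each array was left out in turn and 32 to 36 under the other alternatives. The strain differences that passed numbered 180 and went to 112 after centring arrays on their medians, with 164 to 209 when an array was left out. The differences of at least 2-fold, 6 in number, became 5 to 8. The difference of Dgkz in CAST/EiJ reversed to 0.16 on the second probe set. The non-domesticus count of 10 lay between 7 (without MSM/Ms) and 11, and the C57 family count was 0 in all 13 alternatives and all leave-one-out fits. The pairs that passed were 8 over 36 strains, 5 over all 40 and at most 10. Class medians with an array left out ran from 0.168 to 0.176 for brakes, 0.154 to 0.166 for second-messenger genes, 0.137 to 0.167 for kinases and Ptprc, 0.137 to 0.147 for adaptors and 0.136 to 0.149 for transcription factors. Of 49 strain differences recomputed under the alternatives, 29 lost their call or direction under at least 1 alternative, 15 of them outside the leave-one-out fits, which leave a strain of 2 arrays with 1. Leaving out the 4 arrays that stood apart gave 35 members, 194 strain differences and 11 non-domesticus members. The replicate block gave 34 members varying between strains and 190 strain differences, and the deviations of same-numbered arrays of 36 groups had a median correlation of 0.000389, with 31.6% of group pairs over 0.1. The cause of these changes was not tested.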

Other observations

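The genes next to Rcan3 in the order of the GRCm38.p6 annotation were read after the values of Rcan3 had been seen. Nipal3, a neighbour, also varied between strains (SD 0.318, intraclass correlation 0.868, limma F-test adjusted p = 2.68e-14), and its lowest strain was C57BL/10J at 273.8, against 543 in C57BL/6J, 316.3 in SEA/GnJ and a median of 471. Ncmap varied as well (SD 0.410, adjusted p = 4.51e-16), from 74.45 in MRL/MpJ to 224.5 in DDY/JclSidSeyFrkJ, with 202.2 in SEA/GnJ, 155.3 in C57BL/10J and 111 in C57BL/6J. Srrm1 and Stpg1 had SDs of 0.124 and 0.132 (adjusted p = 0.039 and 0.107).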
